A study of Mus musculus with 9 samples.

Results

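Ribosome biogenesis and nucleolar genes were followed across sorted mouse stromal fibroblasts. The genes were chosen by name: protein-coding rows of the count table whose symbols begin with Utp, Nop, Noc, Nol or Rrp followed by a digit, the 5 RNA polymerase I genes Polr1a to Polr1e, and 19 further listed symbols such as Fbl, Dkc1, Ncl and Npm1. The rule uses names and no measured value, but it was drawn up with earlier results of these data known. The rule gave 62 of the 27370 genes in the table, and all 62 passed the filter on low counts that left 15103 genes for testing. The name rule also takes in genes that are not assembly factors, among them Nol3 and Nol4l, which are described separately.

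PolyA RNA was sequenced in 9 libraries in 3 groups of 3, each library pooling 2 mice at 4 months of age. The mice of all 3 groups, controls included, were of the strain Wt1CreERT2 RosatdTomato CD64DTR, in which a Cre driven from Wt1 turns on tdTomato and cells expressing CD64 carry the diphtheria toxin receptor. Steady-state fibroblastic reticular cells (FRC) were the tdTomato- cells of lymph nodes from untreated mice, and steady-state red pulp fibroblasts (RPF) the tdTomato+ cells of spleens from untreated mice. Depleted-state RPF were the tdTomato+ cells of spleens from mice given diphtheria toxin. The 12 mice of the study gave lymph nodes from 6 untreated, spleens from 6 untreated and spleens from 6 treated mice, so by these numbers the same 6 untreated mice gave both FRC and RPF. The untreated group received no toxin, so that the toxin itself and the loss of CD64-expressing cells cannot be told apart. Neither the dose nor the timing of the toxin is stated in the sources used here. The reporter labels cells of a Wt1 lineage, so each sample holds only the tdTomato+ or tdTomato- side of its tissue.

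Ribosomes are built in the nucleolus. RNA polymerase I transcribes the precursor of the large ribosomal RNAs, the small subunit (SSU) processome folds and cuts the precursor around the small subunit, and snoRNA-guided particles (snoRNPs) modify it by methylation (box C/D) or pseudouridylation (H/ACA). A separate set of assembly factors builds the large subunit. Transcription of many of these genes is known to follow MYC and growth signals. Only polyadenylated RNA was measured, so ribosomal RNA itself was not.

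Total counts per library ran from 25414645 to 43879806, and the 62 genes together received between 65312 and 253150 counts per library. Levels are CPM, read counts divided by library size, after TMM scaling, a between-library correction based on the bulk of genes. Fibroblast labels were met in part. Wt1 was at a mean of 1.64 CPM in FRC, 62.1 in steady-state RPF and 34.3 in depleted-state RPF. Pdgfrb was high in all groups (515, 942 and 2331 CPM), but Pdpn, which encodes gp38, was at 74.1 CPM in FRC and essentially absent from RPF (0.0981 and 0.0733). FRC replicate 1 and RPF steady replicate 1 stood apart in holding 69 and 24 Y-linked counts, against 2315 to 6124 in the other libraries. A total of 14 red pulp macrophage markers, Vcam1 and Hmox1 left out, summed to 308 to 374 CPM in steady-state RPF and 81.1 to 119 in depleted-state RPF. Of these 14, 5 (Adgre1, C1qa, Cd5l, Fcgr1 and Siglec1) had no count in the depleted-state libraries. In such bulk samples, fewer cells of a type and less RNA per cell cannot be told apart.

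The first comparison set RPF of toxin-treated mice against RPF of untreated mice. Ribosome biogenesis genes were broadly higher in depleted-state RPF. Of the 62, 37 (59.7%) rose and 0 fell in edgeR's quasi-likelihood test at a Benjamini-Hochberg adjusted p under 0.05, taken over all tested genes. Among all tested genes 21% were called in this comparison, 11.1% as higher and 9.96% as lower. Among the 3216 genes of similar level 466 were called higher. The median log2 fold change was 1.35 for the 62 and -0.09 for all tested genes, and the members' own values ran from -0.48 to 3.57. No member was lower at an unadjusted p under 0.05, nor was any called lower by DESeq2 or limma-voom.

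The per-library values showed the same shift. In 55 of the 62 genes all 3 depleted-state libraries lay above all 3 steady-state libraries, and in 0 they lay below, while 21.4% of all tested genes lay wholly above and 23% wholly below. Those 55 include all 37 called genes and 18 that were not called. The 62 genes took 0.229% to 0.265% of all counts in steady-state RPF and 0.572% to 0.720% in depleted-state RPF. Without the abundant Ncl and Npm1 the shares were 0.201% to 0.230% and 0.450% to 0.549%. Of the 37 called genes, 33 rose more than 2-fold and 11 more than 4-fold.

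**Figure D1:**
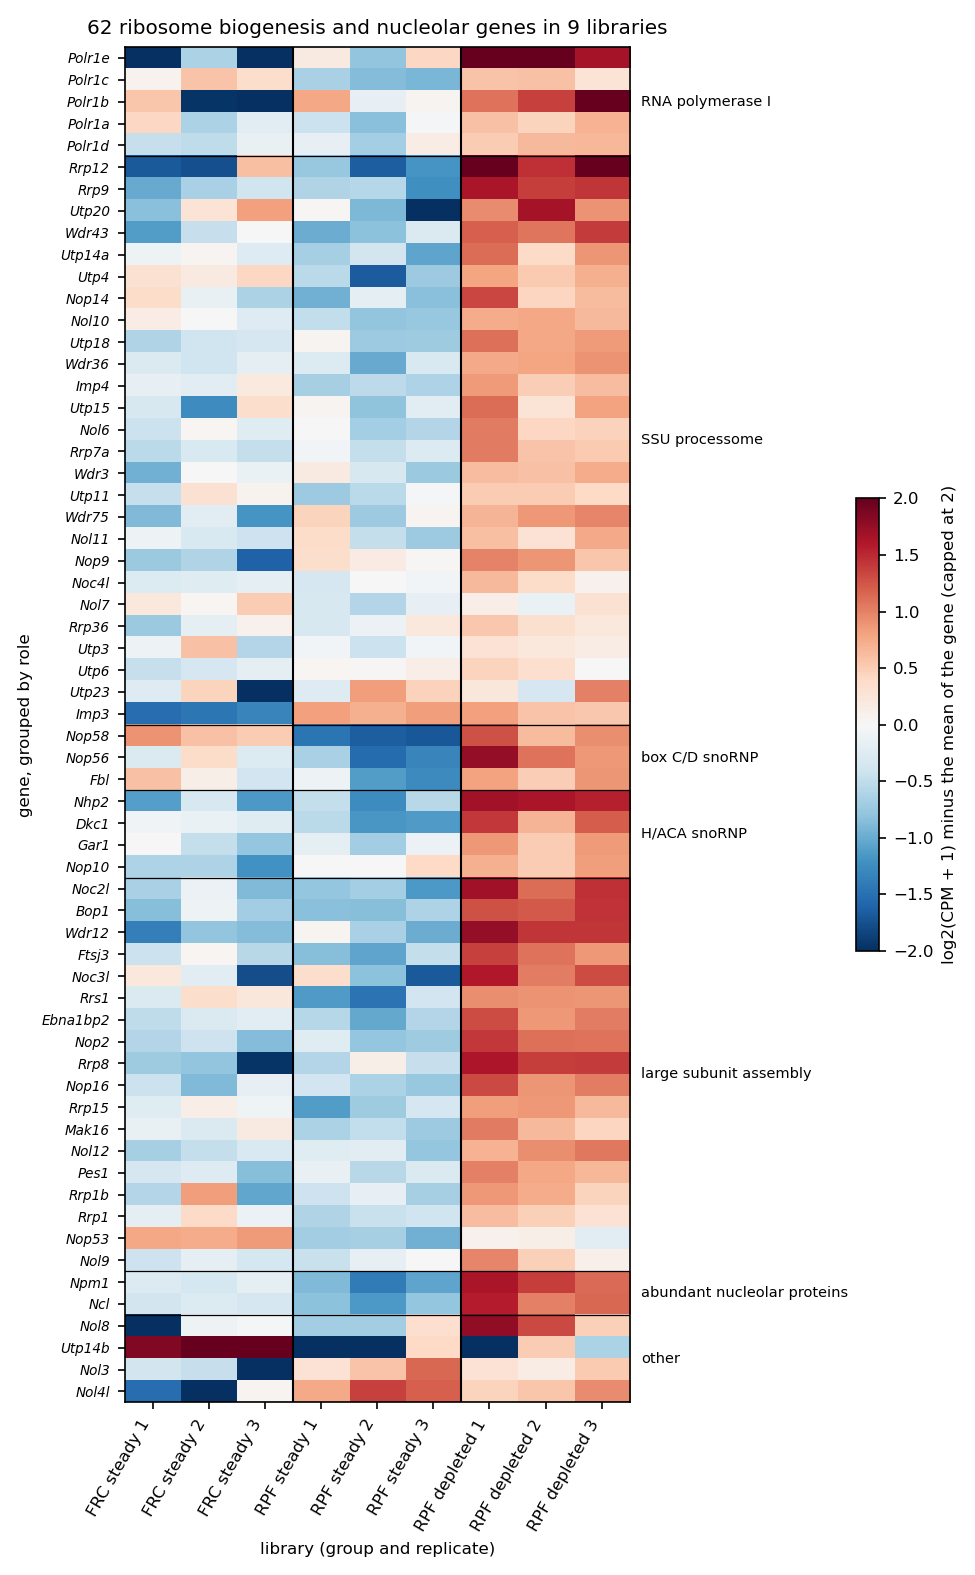
Level of each of the 62 genes (rows, grouped by role) in each of the 9 libraries (columns), as log2(CPM + 1) minus the gene's mean over the 9 libraries. The 3 depleted-state RPF columns on the right are higher than the steady-state RPF columns for most genes, 55 of which do not overlap between the 2 RPF groups.

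Other measures differed between the same 2 groups of libraries. Immediate early and dissociation genes took 0.742% to 1.27% of counts in steady-state RPF and 1.13% to 1.64% in depleted-state RPF, and 6 of 16 tested rose. Of 20 proliferation genes 1 rose, with summed levels of 263 to 358 CPM and 260 to 479 CPM. Macrophage markers moved the opposite way to the ribosome genes, 10 of 13 tested being lower. Summed endothelial markers were at 62.8 to 174 CPM at steady state and 30.9 to 41.8 CPM after depletion, and B and plasma cell markers at 182 to 378 and 82.5 to 120.4 CPM. Neutrophil markers (47.3 to 350.4 and 2.37 to 48.2 CPM) and erythroid markers (191 to 802 and 446 to 729 CPM) overlapped. Fibroblast and sort markers summed to 6506 to 6737 CPM at steady state and 5372 to 5940 CPM after depletion. Within this sum 1 of 9 markers was called higher (11.1%) and 3 lower (33.3%). Pdgfrb had means of 942 and 2331 CPM, and Vcam1 of 1590 and 1035 CPM. Among the transcription factors of RPF, Tcf21 had means of 715 and 213 CPM and Tlx1 of 408 and 229 CPM. The part of these differences in the result was not tested. When RPF steady replicate 1, with few Y-linked counts, was left out, 38 members rose and 0 fell.

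RNA polymerase I makes the ribosomal RNA precursor, and 3 of its 5 genes in the set rose in depleted-state RPF. Polr1c (ENSMUSG00000067148, chromosome 17, 46243920 to 46248054), a subunit shared with RNA polymerase III, was at 21.8, 18.7 and 17.9 CPM in the steady-state and 51.7, 52.7 and 42.3 CPM in the depleted-state RPF libraries, with no overlap. Its log2 fold change was 1.33 ± 0.20 (SE) with an edgeR adjusted p of 0.00167. The catalytic subunit gene Polr1a (22.6, 16.9 and 29.9 against 47.2, 42.5 and 50.8 CPM) rose by 1.02 ± 0.31, at an edgeR adjusted p of 0.0488. Polr1d, the other subunit shared with RNA polymerase III, rose by 0.82 ± 0.25 (edgeR adjusted p = 0.043). Both lie close to the threshold, Polr1a holding in 7 and Polr1d in 8 of 18 alternative analyses.

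The second-largest subunit, Polr1b, was at 24.9, 12.5 and 14.8 CPM in steady-state and 31.2, 37.9 and 61.1 CPM in depleted-state RPF. These groups did not overlap, but the log2 fold change of 1.32 ± 1.15 did not pass (edgeR adjusted p = 0.485). The fit shares its estimate of spread over all 9 libraries, and Polr1b was at 21.2, 2.87 and 0.119 CPM in FRC. Polr1e, a peripheral subunit, was at 13.7, 6.52 and 16.4 against 52.8, 50.9 and 40.3 CPM, a difference of 1.98 ± 0.69 with an edgeR adjusted p of 0.0745. Summed, the 5 subunit genes were at 73.1 to 113 CPM in steady-state and 226 to 243 CPM in depleted-state RPF, with no overlap.

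In the SSU processome set of 26 genes, 13 were called higher, 13 were not called and 0 were lower, at a median log2 fold change of 1.05. In 22 of the 26 all depleted-state libraries lay above all steady-state ones, and in 0 below. Among all tested genes 21.4% lay wholly above and 23% wholly below. Rrp12, whose product takes part in late processing and export of pre-ribosomes, gave the highest fold change of all 62: 8.37, 4.01 and 5.95 CPM at steady state against 101, 42.6 and 74.4 CPM after depletion. Every depleted-state value was above every steady-state one, with a log2 fold change of 3.57 ± 0.76 and an edgeR adjusted p of 0.0105, a call that was lost without RPF steady replicate 2. Rrp9, a protein of the U3 snoRNP, whose RNA pairs with the precursor, was at 30.6, 31.4 and 19.5 CPM at steady state and 148, 124 and 127 CPM after depletion. Its log2 fold change was 2.30 ± 0.24 (edgeR adjusted p = 0.000275).

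The t-UTP proteins bind early to the ribosomal RNA precursor, and their genes Utp4 and Wdr43 both rose. Utp4 was at 55.8, 25.1 and 48.5 CPM at steady state and 141, 117 and 133 CPM after depletion, a log2 fold change of 1.60 ± 0.27 (edgeR adjusted p = 0.00289). Wdr43 was at 31.6, 36.0 and 52.0 CPM at steady state and 148, 135 and 171 CPM after depletion and rose by 1.93 ± 0.30 (edgeR adjusted p = 0.00214). Utp15, Wdr75 and Nol11 of the same group did not pass, at 1.08, 0.86 and 0.77 (edgeR adjusted p = 0.116, 0.111 and 0.103), although the libraries overlapped only for Nol11. The other called processome genes were Imp4, Nol6, Nol10, Nop14, Rrp7a, Utp11, Utp14a, Utp18 and Wdr36, with log2 fold changes between 0.90 (Utp11) and 1.61 (Utp14a).

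Imp3, Utp6 and Utp23 were among the processome genes that did not pass. Imp3, which with Imp4 joins U3 snoRNA to the precursor, was at 76.9, 70.7 and 77.0 CPM at steady state and 76.5, 64.1 and 62.7 CPM after depletion. The groups overlapped and the log2 fold change was -0.14 ± 0.15 (edgeR adjusted p = 0.58), whereas Imp4 went from 38.7, 42.8 and 40.1 to 113, 87.9 and 95.4 CPM and rose by 1.28 ± 0.17 (edgeR adjusted p = 0.00081). Utp6 was among the more abundant members yet differed by only 0.21 ± 0.14 (edgeR adjusted p = 0.361). Utp23 had the largest p of the set, with overlapping levels of 3.38, 8.37 and 6.19 CPM at steady state and 5.14, 3.13 and 9.55 CPM after depletion.

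Box C/D snoRNPs carry the methyltransferase fibrillarin (Fbl) on a scaffold of Nop56 and Nop58. Nop58 (ENSMUSG00000026020, chromosome 1, 59684971 to 59719044) was at 33.6, 29.6 and 28.3 CPM in steady-state RPF and 229, 146 and 180.3 CPM in depleted-state RPF. It rose 6.07-fold, by 2.60 ± 0.20 on the log2 scale (edgeR adjusted p = 6.2e-05). Nop56 (ENSMUSG00000027405, chromosome 2, 130274430 to 130279313) went from 37.4, 19.6 and 23.1 to 204, 127 and 109 CPM, a log2 fold change of 2.46 ± 0.34 (edgeR adjusted p = 0.00112). The fibrillarin gene itself was low in all libraries, at 3.47, 1.22 and 0.992 CPM at steady state and 7.35, 5.72 and 7.88 CPM after depletion. Its groups did not overlap, but the difference of 1.88 ± 0.69 did not pass (edgeR adjusted p = 0.0881).

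Several of the 62 genes, not only those of the snoRNPs, also carry snoRNA genes inside their own bodies. In GENCODE M21, 6 of the 62 genes (9.68%) hold 17 snoRNA genes on their own strand: Dkc1, Ncl, Nop53, Nop56, Nop58 and Wdr43. Among all tested genes with a gene model 1.73% hold one (261 of 15098). All 6 members rose after depletion, beside 37 of all 62 (59.7%) and 11.1% of all tested genes. A link between holding a snoRNA and the rise was not tested. The snoRNAs lack the poly(A) tail that these libraries select, and each of those shown had 3 to 19 counts over the 9 libraries together, too few for a comparison. They are shown because the box C (ATGATGA or GTGATGA) and box D (CTGA) letters, in capitals, are what the C/D proteins bind. Both were searched on the snoRNA strand within 20 bases of the ends, and 8 of the 17 hold them, against 302 of the 1507 snoRNA genes of the annotation. The match is a description of the letters. The sequences, given 5′ to 3′ as DNA from the GRCm38 gene models, are those of Nop58 (chr1:59704790-59704873, plus strand), Nop56 (chr2:130275506-130275573, plus strand), Ncl (chr1:86356261-86356330, minus strand) and Wdr43 (chr17:71631281-71631365, plus strand).
Snord11 in Nop58: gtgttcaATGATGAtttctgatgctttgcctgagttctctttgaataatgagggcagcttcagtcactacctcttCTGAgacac
Snord110 in Nop56: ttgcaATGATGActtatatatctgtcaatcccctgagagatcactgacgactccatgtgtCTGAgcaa
Snord82 in Ncl: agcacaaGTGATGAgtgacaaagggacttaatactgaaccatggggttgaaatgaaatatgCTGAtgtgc
Snord92 in Wdr43: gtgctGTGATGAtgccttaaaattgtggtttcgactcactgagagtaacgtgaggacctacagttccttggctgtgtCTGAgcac

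H/ACA snoRNPs convert uridine to pseudouridine through the enzyme dyskerin (Dkc1), which works with Nhp2, Nop10 and Gar1. Dkc1 was at 28.0, 17.7 and 18.1 CPM at steady state and 110.5, 66.4 and 96.5 CPM after depletion, with no overlap, a log2 fold change of 2.10 ± 0.26 (edgeR adjusted p = 0.000577). Nhp2 went from 22.2, 12.5 and 21 to 102, 99.5 and 93.9 CPM and rose by 2.41 ± 0.31 (edgeR adjusted p = 0.000749). The smaller differences of Gar1 (1.19 ± 0.42, edgeR adjusted p = 0.0806) and Nop10 (0.56 ± 0.23, edgeR adjusted p = 0.127) did not pass, although neither gene's libraries overlapped. The 4 subunits of this particle were thus not alike in size of change, but differences between the genes were not tested.

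Large subunit assembly was the role with the highest share of called genes among those with at least 5 members, 15 of 18, at a median log2 fold change of 1.74 with 0 lower. Noc2l, whose yeast counterpart helps move early large subunit particles out of the nucleolus, was at 62.3, 66.3 and 47.5 CPM at steady state and 343, 233 and 296 CPM after depletion. Its log2 fold change was 2.31 ± 0.24 (edgeR adjusted p = 0.000275). Of its exon bases 20.9% overlap another gene, Samd11, and without a known strand setting such reads cannot be told apart.

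PES1, BOP1 and WDR12 form the PeBoW complex, which is required for maturation of the large subunit RNAs, and all 3 genes rose. Bop1 was at 35.7, 35.1 and 41.6 CPM at steady state and 158, 152 and 177 CPM after depletion, with no overlap and a log2 fold change of 2.11 ± 0.21 (edgeR adjusted p = 0.000217). Wdr12 was less abundant, at 23.3, 13.8 and 10.7 CPM at steady state and 78.1, 61.8 and 62.1 CPM after depletion, and rose by 2.08 ± 0.32 (edgeR adjusted p = 0.00203). Pes1 was at 46.5, 34.8 and 42.1 CPM at steady state and 105, 89.0 and 82.7 CPM after depletion and rose by 1.17 ± 0.21 (edgeR adjusted p = 0.00427).

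The enzymes of the group included Nop2, an rRNA cytosine methyltransferase, at 41.3, 28.1 and 29.4 CPM and 131, 106 and 104 CPM (log2 fold change 1.79 ± 0.21, edgeR adjusted p = 0.000484). The methyltransferase gene Rrp8 rose by 1.77 ± 0.34 (edgeR adjusted p = 0.00599) and Ftsj3, another methyltransferase, by 1.93 ± 0.23 (edgeR adjusted p = 0.000519). Rrs1, which brings the 5S RNA particle into the large subunit, was at 20.3, 15.8 and 34.9 CPM at steady state and at a nearly constant 88.5, 86.1 and 85.7 CPM after depletion. The smallest called rises were those of Nop53 (0.78 ± 0.15) and Rrp1 (0.95 ± 0.17), with edgeR adjusted p of 0.00525 and 0.00426. The 3 genes of the group that did not pass were Noc3l, Nol9 and Rrp1b, all with higher values in every depleted-state library.

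Nucleolin (Ncl), a chromatin and pre-rRNA binding protein, and nucleophosmin (Npm1), a chaperone that helps hold the nucleolus together, are abundant nucleolar proteins. Ncl (ENSMUSG00000026234, chromosome 1, 86344719 to 86359400) was at 244, 194 and 253 CPM in steady-state RPF and 1284, 866 and 956 CPM in depleted-state RPF. It rose 4.5-fold, a log2 fold change of 2.17 ± 0.17 (edgeR adjusted p = 7.19e-05). Npm1 (ENSMUSG00000057113, chromosome 11, 33152287 to 33163206) was at 60.4, 41.9 and 53.6 CPM at steady state and 349, 293 and 246 CPM after depletion and rose 5.69-fold (log2 2.51 ± 0.18, edgeR adjusted p = 5.45e-05). It has the smallest adjusted p of the 62 in this comparison. Npm1 is known for near-identical processed copies elsewhere in the genome, so its count depends on how the authors treated reads that map to several places.

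**Figure D2:**
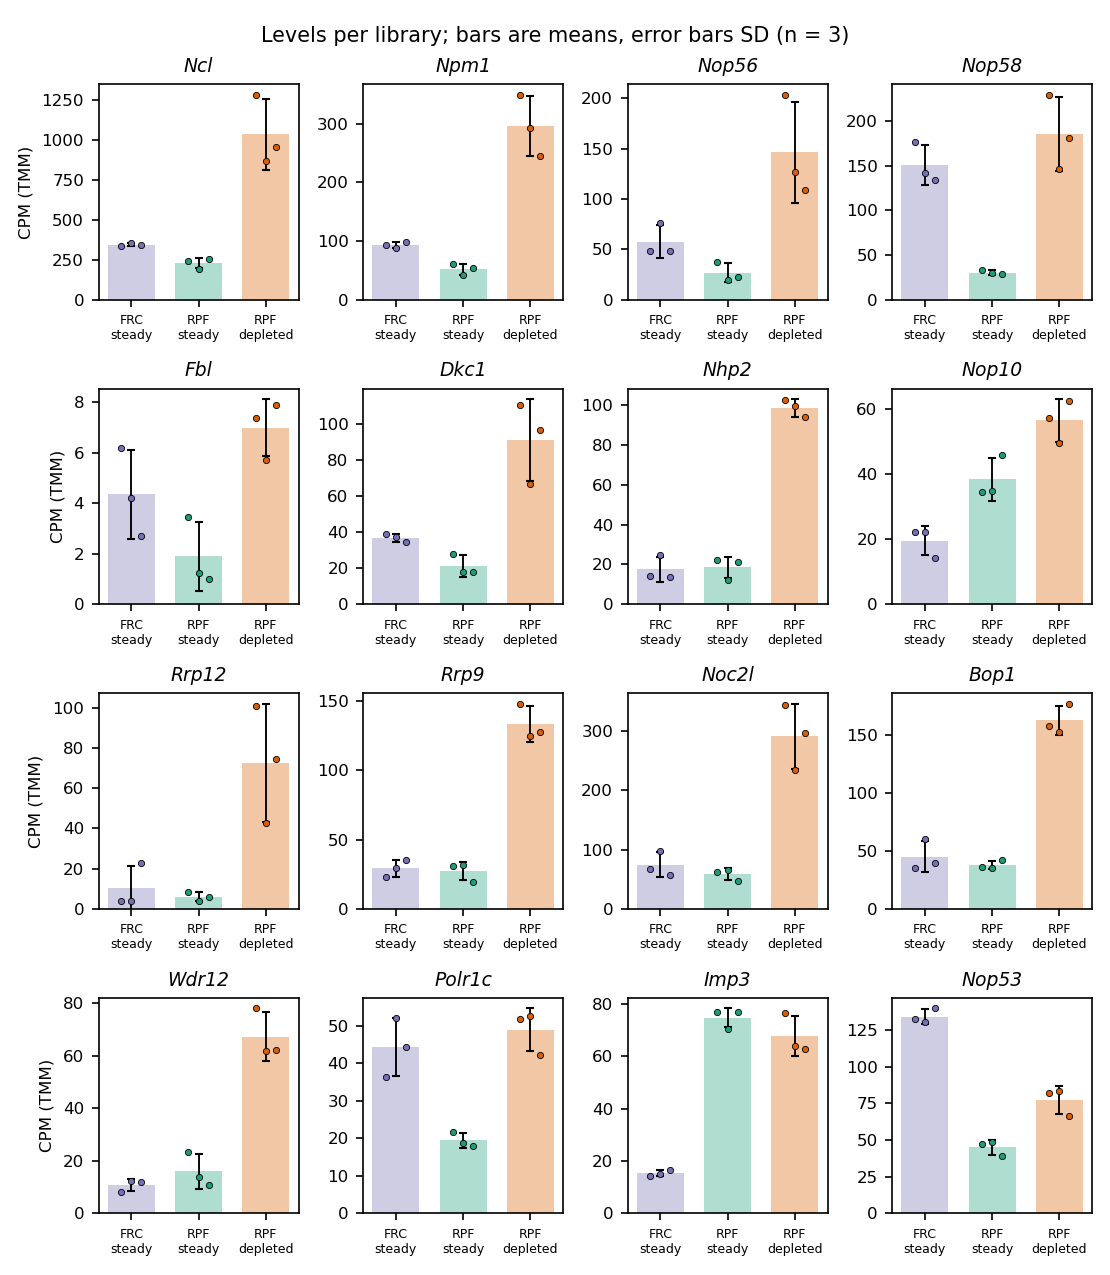
Levels in CPM after TMM scaling of selected members, with bars for group means, error bars for SD (n = 3) and points for libraries. The 3 depleted-state points of Ncl, Npm1, Nop56, Nop58 and Dkc1 lie above the 3 steady-state RPF points, and Imp3 does not differ between the RPF groups beyond its spread.

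Of the 4 genes grouped as other because no role was assigned to them here, none passed. The grouping does not show that they have no part in ribosome assembly. Nol3, which encodes an apoptosis repressor, was at 11.9, 14.6 and 22.3 CPM at steady state and 11.9, 10.7 and 14.1 CPM after depletion with overlapping groups, a difference of -0.41 ± 0.57 (edgeR adjusted p = 0.683). Of its exon bases 48.2% overlap another gene. Nol4l differed by -0.48 ± 1.15 and Utp14b by 0.60 ± 1.84, both with overlapping groups and edgeR adjusted p of 0.831 and 0.875. Utp14b, a testis-enriched copy of Utp14a that lies within the region of Acsl3, ranged from 0 to 5.82 CPM within steady-state RPF. Nol8 did not overlap (4.6, 4.6 and 10.4 CPM at steady state and 30.0, 21.6 and 11.5 CPM after depletion) but missed the threshold (edgeR adjusted p = 0.182).

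**Figure D3:**
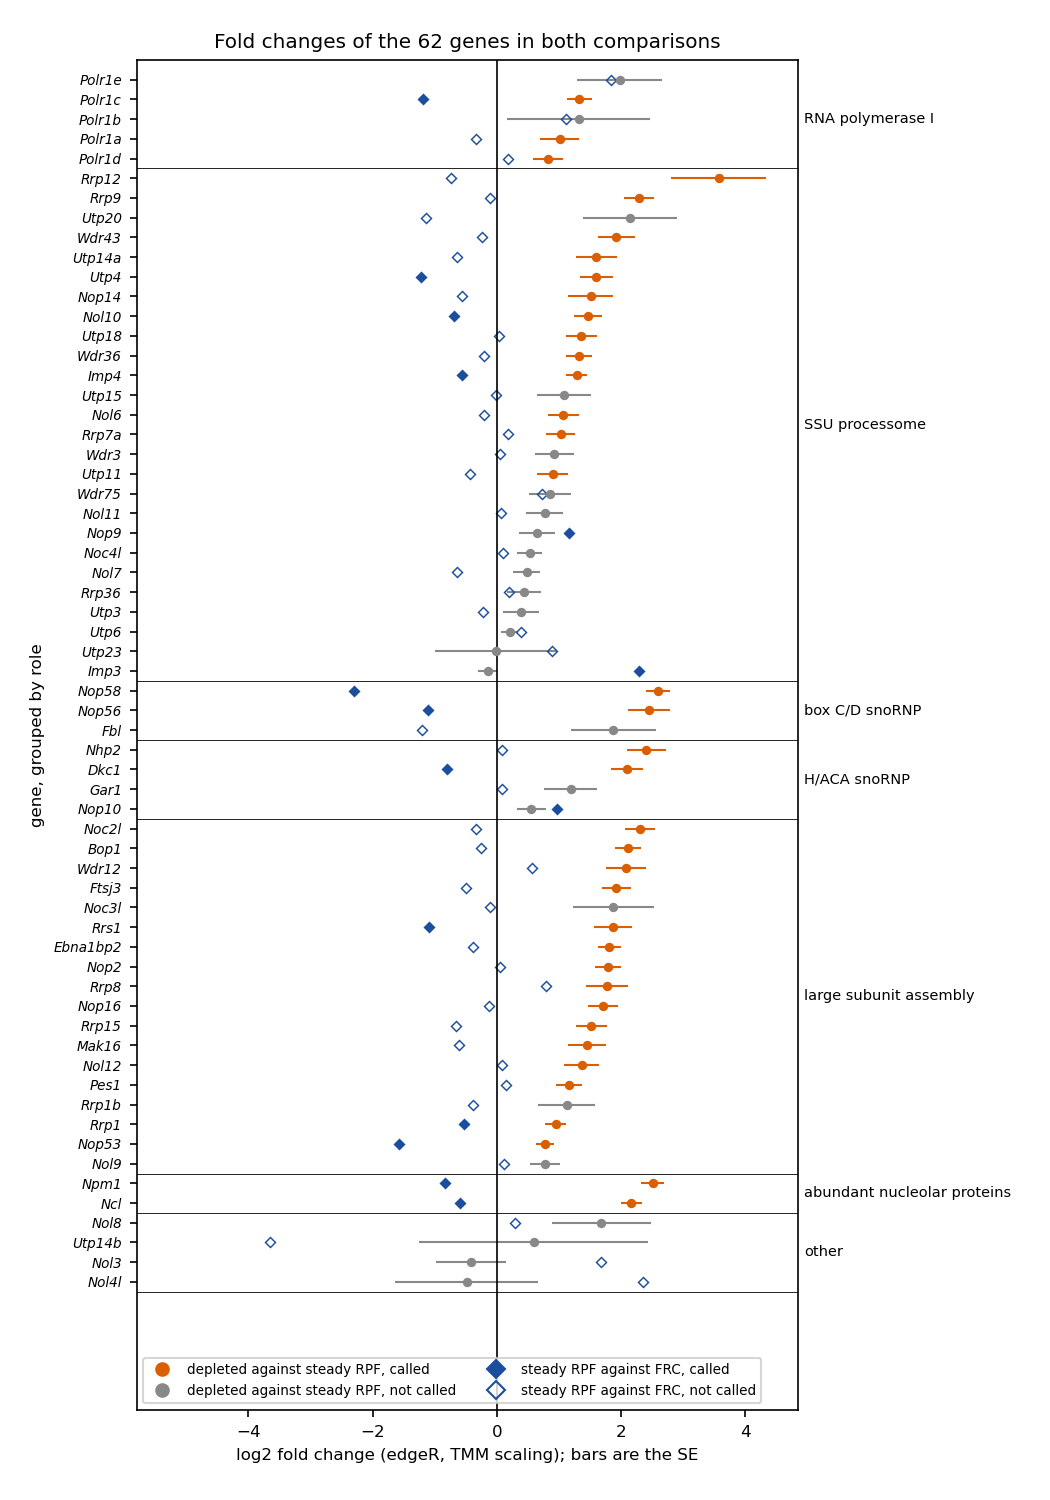
The log2 fold change of each of the 62 genes in edgeR, by role: circles are depleted-state against steady-state RPF with SE bars, filled orange where called and grey where not, and diamonds are steady-state RPF against FRC, filled where called. All called circles lie to the right of 0 and 12 of 15 called diamonds to the left, a split that becomes 3 lower and 15 higher when raw library totals replace TMM scaling. Between steady-state RPF and FRC, raw totals also moved the share of all tested genes called higher from 11.5% to 26.1%. The number called lower went from 2174 to 1342.

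Replicate spread differed between groups. The median coefficient of variation of a member's CPM was 22.9% in FRC, 25.2% in steady-state RPF and 14.5% in depleted-state RPF. In depleted-state RPF it was lowest for Rrs1 (1.76%) and highest for Utp14b (109%). The median level of the 62 genes was 26.8 CPM in FRC, 26.9 in steady-state RPF and 56.4 in depleted-state RPF. Within depleted-state RPF, replicate 1 had the highest value for Ncl, Npm1, Nop56, Nop58, Dkc1 and Rrp12, and the call for the set did not rest on it, since without it 31 members rose and 0 fell.

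The second comparison set spleen against lymph node fibroblasts at steady state. With TMM scaling 3 of the 62 genes (4.84%) were higher and 12 (19.4%) lower in steady-state RPF than in FRC, but with raw library totals, an alternative chosen after seeing the data, 15 were higher and 3 lower. Among all tested genes 25.9% were called, 11.5% as higher and 14.4% as lower, so under TMM scaling the share of members called lower is near that background and the share called higher is below it. Under raw totals 26.1% of all 15103 tested genes were called higher and 1342 lower. The rise in calls of higher genes was therefore not particular to the members. The median log2 fold change of the 62 was -0.21 against -0.02 for all tested genes. Raw totals moved the median of all genes by over 0.5, to 0.55, and that of the members to 0.37, and 27 members lay above the median of all genes under both scalings. The share of counts taken by the 62 was 0.199% to 0.227% in FRC, a little below the 0.229% to 0.265% of steady-state RPF, while their summed TMM level was 2656 ± 182 CPM in FRC and 2111 ± 178 CPM in steady-state RPF (SD, n = 3). The order of these groups therefore depends on the scaling.

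Only 6 of the 15 calls held under raw totals. Nop58 was lower in steady-state RPF than in FRC (33.6, 29.6 and 28.3 against 176, 142 and 134 CPM), with a log2 fold change of -2.30 ± 0.19 (edgeR adjusted p = 3.67e-05). Nop53, a late large subunit factor, was also lower, at 47.4, 48.5 and 39.1 against 133, 130.2 and 139.9 CPM (-1.58 ± 0.15, edgeR adjusted p = 6.95e-05). Polr1c was lower too, with a log2 fold change of -1.19 ± 0.20 (edgeR adjusted p = 0.00234), its FRC libraries being at 36.4, 51.9 and 44.5 CPM. In the other direction, Imp3 was 4.88-fold higher in steady-state RPF, 14.3, 15.1 and 16.6 CPM in FRC and 76.9, 70.7 and 77.0 CPM in RPF, with no overlap. Its log2 fold change was 2.29 ± 0.16 with an edgeR adjusted p of 1.11e-05. Nop9, an RNA-binding factor of the small subunit pathway, and Nop10 were higher by 1.16 ± 0.29 and 0.97 ± 0.23 (edgeR adjusted p = 0.0181 and 0.0146). Of the exon bases of Nop9, 29.9% overlap Cideb.

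The other 9 members called lower with TMM scaling were Dkc1, Imp4, Ncl, Nol10, Nop56, Npm1, Rrp1, Rrs1 and Utp4, and none of these was called under raw totals, where Rrp1 and Imp4 changed sign. Utp4 was the clearest of them, at 101, 92.1 and 109 CPM in FRC and 55.8, 25.1 and 48.5 CPM in steady-state RPF (log2 fold change -1.22 ± 0.26, edgeR adjusted p = 0.00885). Ncl was at 336, 357 and 342 CPM in FRC, a difference of -0.58 ± 0.16 (edgeR adjusted p = 0.0278). Npm1 was at 92.7, 87.5 and 98.2 CPM in FRC and differed by -0.84 ± 0.17 (edgeR adjusted p = 0.00721). Beside these values, immediate early and dissociation genes took 4.00% to 4.37% of counts in FRC and 0.742% to 1.27% in steady-state RPF, with 14 of 16 called lower in RPF. Proliferation genes summed to 143 to 195 CPM in FRC and 263 to 358 CPM in RPF, with 9 of 20 higher and 1 lower. Summed markers of other cell types were higher in steady-state RPF than FRC for macrophages without Vcam1 and Hmox1 (means 337 and 138 CPM). The same held for neutrophils (162 and 4.69 CPM) and erythroid cells (493 and 53.7 CPM). Endothelial markers had the higher mean in RPF (135 and 60.6 CPM), but their libraries overlapped (62.8 to 174 and 49.5 to 66.4 CPM). T and NK cell markers were lower in RPF (means of 2.95 and 13.7 CPM). B and plasma cell markers also had the lower mean in RPF (259 and 370 CPM), with overlapping libraries. The part of these measures in the result was not tested. The tissue, the tdTomato gate and the cell type change together here and cannot be told apart.

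Depleted-state RPF were also set against FRC, a comparison that shares its libraries with the other 2 and adds no independent sample. It gave 37 members higher (59.7%) and 1 lower, where 35.8% of all tested genes were called, 16.9% as higher and 18.8% as lower. In 51 members the depleted-state libraries all lay above FRC, in 2 all below, against 24.5% and 25.8% of all tested genes. The median log2 fold change was 1.17 for the members and -0.06 for all tested genes. Raw totals made the members' median 1.58 with 51 members higher and 0 lower, where 26% of all tested genes were called higher. The one lower gene, Nop53, was at 133, 130.2 and 139.9 CPM in FRC and 82.1, 83.7 and 66.1 CPM in depleted-state RPF (-0.80 ± 0.15, edgeR adjusted p = 0.00271), and was not called lower under raw totals. Beside these values, 13 of 20 proliferation genes were higher and 0 lower in depleted-state RPF than in FRC, 15 of 16 immediate early and dissociation genes were lower (mean shares of 1.37% and 4.19% of counts), and 4 of 8 erythroid markers were higher. Of 13 macrophage markers tested, Vcam1 and Hmox1 left out, 6 were lower and 1 higher. Of 6 B and plasma cell markers tested, 3 were lower and 0 higher. The part of these measures was not tested. By role, 16 of 26 SSU processome genes, 12 of 18 large subunit genes, 2 of 5 RNA polymerase I genes, 1 of 3 box C/D genes and 4 of 4 H/ACA genes were higher.

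Set side by side, the 3 groups gave different orders for different members. Polr1e was low in FRC (0.88, 7.4 and 2.00 CPM) and higher in depleted-state RPF by 3.81 ± 0.74 (edgeR adjusted p = 0.00392), with steady-state RPF in between. Imp3 was higher in both RPF groups than in FRC, by 2.29 ± 0.16 at steady state and 2.14 ± 0.16 after depletion. Nop58 was lowest in steady-state RPF, and depleted-state RPF and FRC (176, 142 and 134 CPM) overlapped, with a difference of 0.30 ± 0.18 (edgeR adjusted p = 0.244). Polr1c had the same form, at 36.4, 51.9 and 44.5 CPM in FRC, and depleted-state RPF differed from FRC by 0.14 ± 0.20 (edgeR adjusted p = 0.612). Bop1, Nop2, Noc2l, Rrp8, Rrp9, Rrp12, Wdr12 and Nhp2 were not called between FRC and steady-state RPF and were higher in depleted-state RPF than in either, with log2 fold changes against FRC between 1.85 and 2.83 (edgeR adjusted p between 0.000147 and 0.0163). Ncl and Npm1 were higher in depleted-state RPF than in FRC by 1.58 ± 0.17 and 1.67 ± 0.18.

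**Figure D4:**
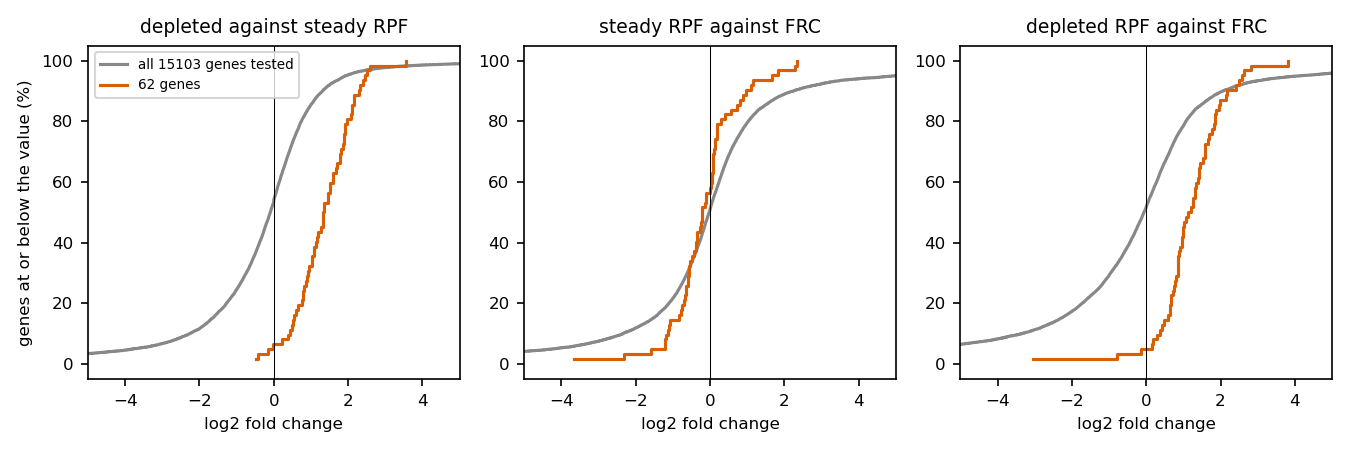
Distribution of log2 fold changes of the 62 genes beside that of all 15103 tested genes in the 3 comparisons. For depleted-state RPF against FRC the members' median is 1.17 against -0.06 for all genes. After depletion the members' median is 1.35 against -0.09 for all genes, and at steady state between RPF and FRC it is -0.21 against -0.02, which becomes 0.37 against 0.55 with raw library totals.

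Factors of the same pathway outside the name rule were also mostly higher. Of 66 further assembly factors, 40 rose and 0 fell in depleted-state RPF, with a median log2 fold change of 1.21, beside the background of 11.1% higher. Gnl3, which encodes the nucleolar GTPase nucleostemin, was at 35.9, 33.9 and 31.2 CPM at steady state and 251, 169 and 197 CPM after depletion, a log2 fold change of 2.61 ± 0.25 (edgeR adjusted p = 0.00019). Emg1, an rRNA pseudouridine methyltransferase, rose by 1.47 ± 0.14 (edgeR adjusted p = 0.00015). Heatr1, which encodes a t-UTP protein that also supports RNA polymerase I transcription, rose by 1.84 ± 0.33 (edgeR adjusted p = 0.00453). Between RPF and FRC at steady state, 1 of the 66 (1.52%) was higher and 8 (12.1%) lower with TMM scaling. Among all tested genes 11.5% were higher and 14.4% lower there, so neither share of the 66 exceeds the background. With raw totals 15 of the 66 were higher and 0 lower. Of all 15103 tested genes, 26.1% were then called higher and 1342 lower. With TMM scaling Mrto4 (-1.18 ± 0.26) and Ddx51 (-0.97 ± 0.22) led the lower ones (edgeR adjusted p = 0.00953 and 0.0118).

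The exosome, which trims rRNA precursors, had 3 of 13 tested genes (23.1%) higher and 0 lower after depletion, beside 11.1% higher and 9.96% lower among all tested genes, led by Exosc10 (1.22 ± 0.14, edgeR adjusted p = 0.000418) and Exosc3 (1.01 ± 0.21, edgeR adjusted p = 0.00889). Of 15 other RNA polymerase I genes 2 (13.3%) rose, Rrn3 and Polr2h, a share near that background. Rrn3, the factor that readies RNA polymerase I for initiation, was at 64.0, 57.9 and 59.3 CPM at steady state and 152, 102 and 115 CPM after depletion (1.02 ± 0.25, edgeR adjusted p = 0.0194). Ubtf, the upstream binding factor of the rRNA gene promoter, differed by 0.64 ± 0.21, just short of the threshold (edgeR adjusted p = 0.0591), and Tcof1, whose protein treacle works with it, by 1.14 ± 0.51 (edgeR adjusted p = 0.158). RNA polymerase III genes, which serve 5S RNA and tRNA, had 2 of 21 (9.52%) higher and 1 (4.76%) lower, close to the share over all tested genes. The lower gene was Maf1, the repressor of RNA polymerase III, at 159, 176 and 163 CPM at steady state and 78.3, 74.7 and 70.8 CPM after depletion (-1.16 ± 0.13, edgeR adjusted p = 0.000374). Polr3d, a subunit gene, rose 2.83-fold (edgeR adjusted p = 0.00455).

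Myc, a transcription factor known to drive ribosome biogenesis genes, was at 76, 44.2 and 39.1 CPM in steady-state RPF and 279, 253 and 232 CPM in depleted-state RPF. It rose 4.79-fold, a log2 fold change of 2.26 ± 0.24 (edgeR adjusted p = 0.000301). In FRC it was far higher, 1513, 1808 and 1848 CPM, so that steady-state RPF lay 32.5-fold and depleted-state RPF 6.77-fold lower (edgeR adjusted p = 3.62e-06 and 4.36e-05). The summed level of the members was 2656 ± 182 CPM in FRC, 2111 ± 178 CPM in steady-state RPF and 5982 ± 763 CPM in depleted-state RPF (SD, n = 3). Myc is itself an immediate early gene, a class whose share of counts was highest in FRC. The part of Myc in the levels of the members was not tested.

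Within the Myc network list of 12 tested genes, 2 rose and 2 fell after depletion (16.7% each way, beside 11.1% and 9.96% of all tested genes), against 1 and 3 with raw totals and 1 and 2 with RLE or upper quartile scaling. Mxd4, an antagonist that competes with MYC for its partner MAX, was at 99.4, 123 and 97.7 CPM at steady state and 45.7, 45.3 and 43.2 CPM after depletion. Its log2 fold change of -1.25 ± 0.16 passed (edgeR adjusted p = 0.000619). Mxi1, of the same family, differed by -1.25 ± 0.42 and did not pass (edgeR adjusted p = 0.0684). Mycn was low in FRC and at 20.3, 24.8 and 22.1 CPM in steady-state RPF, with no called change after depletion (0.25 ± 0.96, edgeR adjusted p = 0.904).

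**Figure D5:**
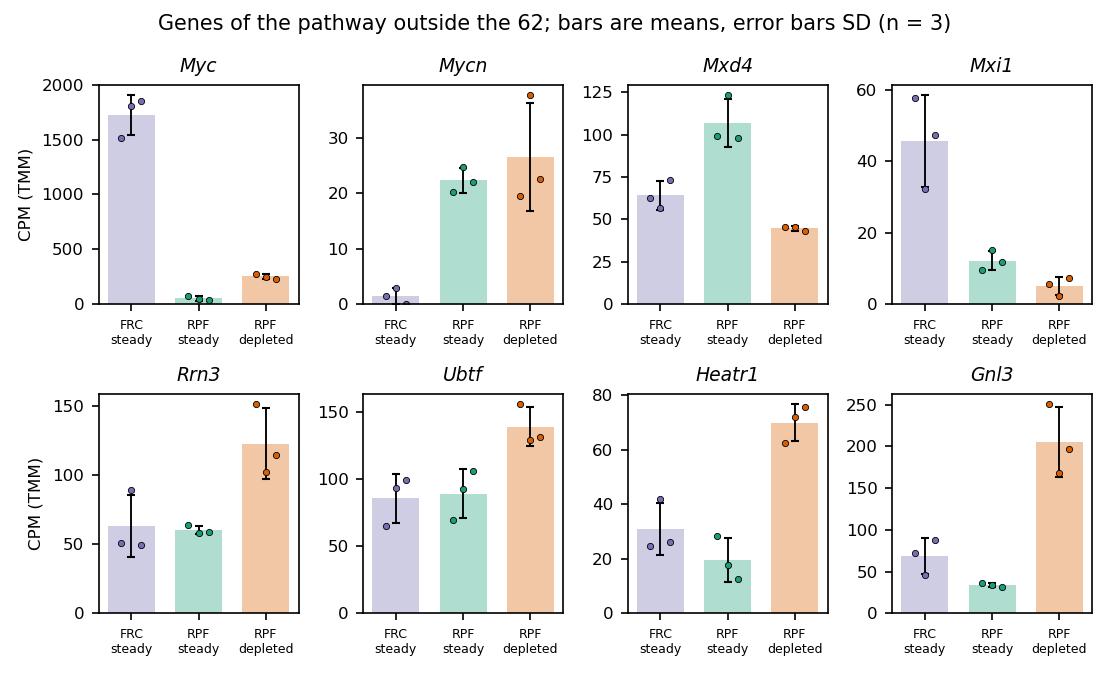
Levels in CPM after TMM scaling of 8 pathway genes that are no members: Myc, Mycn, Mxd4, Mxi1, Rrn3, Ubtf, Heatr1 and Gnl3, with bars for group means, error bars for SD (n = 3) and points for libraries. Myc is highest in FRC, while Rrn3, Heatr1 and Gnl3 are highest in depleted-state RPF and Mxd4 is lowest there.

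Levels of different genes were compared per length, as CPM per kilobase of the deposited median transcript length. In depleted-state RPF the 4 highest were Ncl (1207 ± 256 CPM per kilobase), Rrp1 (398 ± 45.8), Nop58 (289.7 ± 65.3) and Npm1 (279 ± 48.8). The 4 lowest there were Utp14b, Nol3, Nol8 and Utp23, at 0.526 ± 0.574, 3.84 ± 0.539, 6.49 ± 2.86 and 7.82 ± 4.32 CPM per kilobase. Noc3l, among the 4 lowest by the mean of the 3 groups, was at 11.7 ± 2.4 after depletion. The order depends on the length used: per kilobase of the longest annotated mRNA the highest in depleted-state RPF were Npm1 (181 CPM), Rrp1 (130), Ncl (126) and Noc2l (103). Short annotated transcripts lower the deposited median, as for Utp20, with a median of 729 bases and a longest mRNA of 8821 bases.

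Promoters were searched on both strands for CACGTG, the E-box that MYC and MAX are known to bind, in the 250 bases before each RefSeq start (GRCm38.p6). Only 49 of the 62 genes (79.0%) matched a promoter entry, under the 80% needed, so the search is void as a check on the set. It found the motif in 6 of 49 members (12.2%), beside 1044 of 10770 tested genes with an entry (9.69%), and in 1854 of all 27025 promoters (6.86%). The 6 are Imp4, Nol11, Nop2, Rrp7a, Utp14b and Utp18, of which 4 rose after depletion, beside 24 of the 43 members (55.8%) with an entry and no motif. The windows of Nop2 (chr6:125131763-125131882, plus strand) and Utp18 (chr11:93885767-93885846, minus strand) are shown with the motif in capitals because both genes rose and no annotated exon overlaps them. The motif stands 60 bases before the start in Nop2 and 20 before it in Utp18, and a match is no evidence of binding.
Nop2 promoter: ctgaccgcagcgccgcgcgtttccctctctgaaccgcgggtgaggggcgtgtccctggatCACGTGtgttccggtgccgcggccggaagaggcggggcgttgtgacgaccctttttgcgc
Utp18 promoter: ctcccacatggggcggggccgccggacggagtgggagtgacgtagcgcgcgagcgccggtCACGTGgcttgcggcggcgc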

How the data were processed

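PolyA RNA-seq counts of 9 libraries in 3 groups of 3 were used. The authors deposited raw counts for each Ensembl gene, per the file headers, with a median transcript length that served only for levels per length. Tools listed in the submitters' processing notes are STAR 2.5.3a, Bowtie2 2.2.8, cutadapt 1.10 and HTSeq 0.6.1p1, and coordinates follow the listed build, mm10. The annotation release, the strand setting and the treatment of multiply mapped reads were not given in the sources used here, so reads of overlapping genes or near-identical copies cannot be told apart. The 24 unused per-sample columns hold normalized values and 2 further libraries.

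Counts were fitted in R 4.3.3 with edgeR 4.0.16 (TMM scaling, filterByExpr, robust quasi-likelihood, a term per group, 6 residual degrees of freedom), two-sided, with Benjamini-Hochberg adjustment over all 15103 tested genes. Replicates are pools of 2 mice, whose spread the p-values measure, numbered in accession order because the labels give no number. FRC and steady-state RPF share mice, but the labels do not tie their libraries to each other, and the test treats them as independent. Depth differs by under 2-fold between libraries.

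The members and lists were chosen with earlier results of these data known. Named genes were, per comparison, all called members up to 30 or otherwise the 10 with the largest rise and fall, the snoRNP, RNA polymerase I and PeBoW members, Ncl and Npm1, the 4 highest and 4 lowest per length, the member with the largest p, Myc, Ubtf, Rrn3, Heatr1 and Tcof1, and, from each pathway list, the 2 with the smallest p among those called. Other genes were named after their values were seen, as examples of their list. Alternatives tried were upper quartile and RLE scaling, other filters on low counts, no robust prior, fits of the compared groups alone, DESeq2 1.42.0, limma-voom (limma 3.58.1), leaving out each library, and raw library totals, added after seeing the data. The fit was tested on simulated data. Plots used matplotlib 3.10.9 under Python 3.11.15.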

Additional observations from a re-analysis of the deposited data

How the results depend on the processing

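In depleted-state against steady-state RPF all 37 calls among members kept their sign in 18 alternatives, 30 were called in each, and Nol6, Nop14, Polr1a, Polr1d, Rrp12, Rrp7a and Utp11 were lost in at least one. The count ran from 31 to 39 when a library was left out and from 34 to 47 otherwise, with 0 lower throughout. Against FRC 28 of 38 calls on depleted-state RPF and 4 of 15 on steady-state RPF (Imp3, Nop53, Nop58 and Polr1c) held in each.

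Steady-state RPF against FRC was the least stable. Members higher numbered 5 with upper quartile scaling, 6 with DESeq2, 5 with limma-voom and 15 with raw totals, and members lower 5 with upper quartile scaling, 6 with only the compared groups and 3 with raw totals. Leaving out a library gave 2 to 5 higher and 5 to 9 lower. FRC replicates 2 and 3 and RPF steady replicates 1 and 2 each brought the lower count to 7 or fewer (6, 6, 7 and 5). Under raw totals Rrp1 reversed to 0.051 and Imp4 to 0.019 on the log2 scale, and the summed member level was 2111 CPM in FRC and 2505 CPM in steady-state RPF. Depleted-state RPF against FRC had 2 members lower with limma-voom and 0 with raw totals.

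Over all genes, DESeq2 called 2590 lower after depletion and 2610 higher in steady-state RPF than FRC. Raw totals gave 3935 higher and 1342 lower there, and 3933 higher for depleted-state RPF against FRC. Leaving out a library gave 968 to 1561 genes lower after depletion, fewest without RPF steady replicate 2. Apart from scaling and the number of samples, which the alternatives change by construction, the cause was not tested. No paired analysis was possible because the labels give no replicate numbers that tie libraries across groups. The effect of depth on low members such as Fbl and Utp23 was not tested.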

Other observations

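Cytosolic ribosomal protein genes, the products of which are built into the subunits, were outside the name rule. Of 76 tested, 49 rose and 0 fell in depleted-state RPF, with a median log2 fold change of 1.54, beside 11.1% of all tested genes called higher. Between steady-state RPF and FRC 0 were higher and 29 (38.2%) lower with TMM scaling, beside 11.5% and 14.4% of all tested genes. Raw totals gave 0 and 12, where 1342 of all 15103 tested genes were lower. In depleted-state RPF against FRC 20 (26.3%) were higher and 0 lower with TMM scaling, beside 16.9% and 18.8% of all tested genes. Raw totals gave 40 and 0, where 26% of all tested genes were higher. Many have near-identical processed copies, so their counts depend on how reads mapping to several places were treated.

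Targets of p53, a factor known to respond when ribosome assembly is disturbed, were also listed. After depletion 5 of 16 tested genes (31.2%) rose and 2 (12.5%) fell, beside 11.1% and 9.96% of all tested genes. Plk2, a stress-induced kinase gene, was at 42.5, 20.8 and 8.47 CPM in steady-state and 289.8, 504 and 517 CPM in depleted-state RPF, a log2 fold change of 4.19 ± 0.56 (edgeR adjusted p = 0.000917). Sesn1, which encodes a brake on mTORC1 signalling, was at 39.8, 43.9 and 45.0 CPM in steady-state and 8.9, 5.48 and 7.3 CPM in depleted-state RPF and fell by 2.57 ± 0.26 (edgeR adjusted p = 0.000238). In neither gene did the RPF groups overlap. Between steady-state RPF and FRC 2 of the 16 (12.5%) were higher and 6 (37.5%) lower with TMM scaling, beside 11.5% and 14.4% of all tested genes. With raw totals 5 were higher and 4 lower. Of all 15103 tested genes, 26.1% were then called higher and 1342 lower. Cdkn1a, which encodes the cell cycle inhibitor p21, was lower by 3.33 ± 0.27 on the log2 scale under TMM (edgeR adjusted p = 2.89e-05).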
